A study of Elaeis guineensis with 6 samples.

Results

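The genes described here are 6 floral MADS-box genes of oil palm (Elaeis guineensis), chosen by name among the 32099 gene records of the FPKM table: SQUA1, AGL6-1, AGL2-3, LOC105057174 (also named AGL2-5), LOC105042148 (also named AGL2-2) and MADS2 (also named AGL2-1). Each has 1 record. The table holds 6 RNA-seq libraries of primordial inflorescences, 1 for each combination of treatment and leaf axil. The treatments were control (no treatment) and stress (complete defoliation, in which all leaves but the unopened centre one were removed), and the leaf axils were -27 and -20, the early ones, and +5, the oldest of the sampled inflorescences and not yet emitted. All 3 libraries of a treatment came from 1 tree, felled 45 days after the treatment, so treatment and tree cannot be told apart. FPKM values count sequenced fragments after scaling for gene length and library size, so they can be set side by side between genes of a library. Between libraries the comparison is less direct, since the summed FPKM ran from 238672 (stress, +5) to 268805 (control, +5). Some shares of differing genes are therefore also given after centring on library medians.

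MADS-box genes encode transcription factors that bind DNA as dimers and, in floral organs, as complexes of several MADS proteins. Members of the SQUAMOSA (APETALA1) group are known in snapdragon and Arabidopsis for giving a meristem its floral identity. The AGL2 group, called SEPALLATA in Arabidopsis, encodes the shared partners of the organ identity proteins. AGL6 genes form the sister group of SEPALLATA and in rice act on floral organs in a similar way.

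Of the 6 genes only SQUA1 reached an FPKM of 1 in every library, and its level at leaf axil +5 was 20.1 times the early mean in the control tree and 23.9 times in the defoliated tree. LOC105057174 and AGL6-1 reached 1 at +5 only, LOC105057174 in both trees with a lower value under stress, and AGL6-1 in the control tree alone. AGL2-3 was above 0 in 1 library, at a value near the detection limit. LOC105042148 and MADS2 were listed at 0 in all 6 libraries, as were 5938 of the 32099 records (18.5%). A value of 0 in this table can also be an estimate that failed, so it is not read here as absence of the transcript. In tissue samples of this kind, fewer cells that express a gene and less RNA per cell cannot be told apart.

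Taking an FPKM of at least 1 as the point of appearance, 1 of the 6 genes (SQUA1) had appeared at leaf axils -27 and -20 in either tree. At +5 the number was 3 in the control (SQUA1, LOC105057174 and AGL6-1) and 2 under stress (SQUA1 and LOC105057174). With the point of appearance at 0.5 these numbers stayed as they were. At 2 the number under stress at +5 was 1, since the value of LOC105057174 there was just under it. Over all records, between 55.6% (stress, -20) and 59.4% (control, +5) reached 1 in a library.

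**Figure D1:**
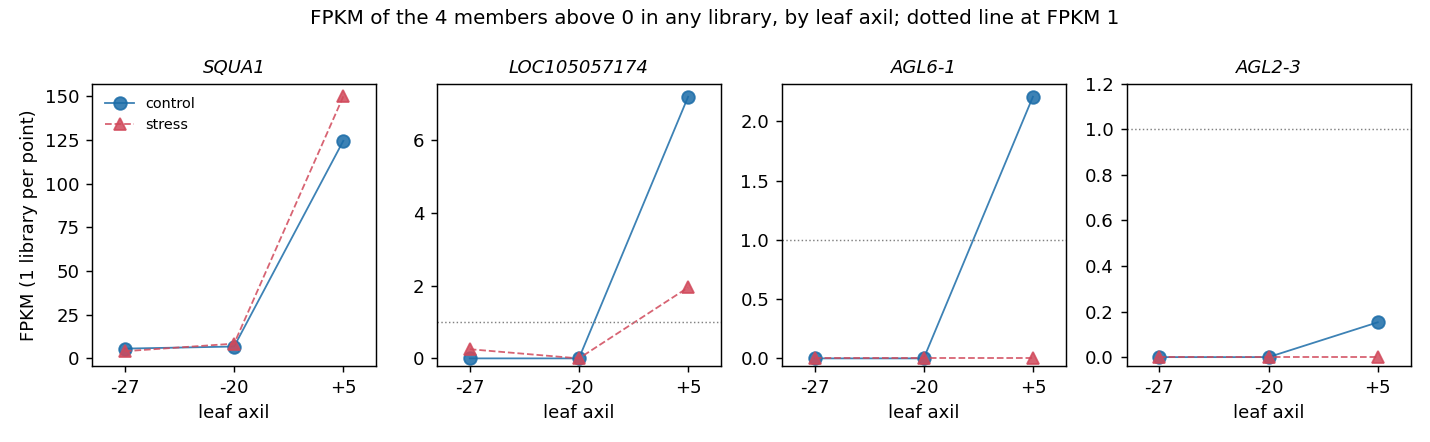
FPKM (linear vertical axis, a different range in each panel) against leaf axil for the 4 genes with a value above 0 in any library. Each point is 1 library, circles and solid lines are the control tree, triangles and dashed lines the defoliated tree, and the dotted line marks an FPKM of 1. SQUA1 lay at 124 and 150 at +5 and under 9 at the early leaf axils, while AGL6-1 left 0 only in the control library at +5, at 2.21.

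The FPKM of SQUA1, the SQUAMOSA-type gene, was 5.59 (-27), 6.78 (-20) and 124 (+5) in the control tree. In the defoliated tree it was 4.10, 8.43 and 150 in that order. Both libraries of +5 were far above all 4 early libraries, which had a mean FPKM of 6.23 ± 1.83 (SD, n = 4 libraries of 2 trees). Relative to the mean of the early leaf axils of its tree, the value at +5 was 20.1 times as high in the control and 23.9 times as high under stress. In the library as a whole, SQUA1 moved from the middle of the range to near its top. Ordered from the highest FPKM, its rank in the control was 8303 at -20 and 219 at +5, and under stress it was 6569 and 115.

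On the log2(FPKM + 1) scale, which understates the change of low genes, SQUA1 was 4.13 higher at +5 than the mean of -27 and -20 in the control and 4.44 higher under stress. Among the 20926 tested genes (those that reached an FPKM of 1 in any library), this was the 16th largest rise in the control tree (rank 16) and the 4th largest in the defoliated tree (rank 4). For comparison, 8.84% of these genes rose by at least 2-fold in the control tree and 4.72% in the defoliated tree, and the median difference was 0.07 and 0.02. After centring on library medians, the first of these shares was 7.06%. Between leaf axils -20 and -27, where 0.588% of the genes in the control and 0.55% under stress were at least 2-fold higher at -20, SQUA1 differed by 0.24 in the control and 0.89 under stress, short of 2-fold on this scale. In FPKM without the added 1, SQUA1 under stress was 2.05 times as high at -20 as at -27. Its difference under stress was among the larger ones on the log2(FPKM + 1) scale (rank 172 of 20926).

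The rise of SQUA1 with the leaf axil was tested with limma over both trees, with the treatment as covariate and Benjamini-Hochberg adjustment over all 20926 genes. A gene was called when its adjusted p was below 0.01 and it differed by 1 or more on the log2 scale, following the study's methods, and 1.53% of the genes were called (0.889% higher at +5). SQUA1 was called, with a log2 fold change of 4.29 (standard error 0.25, adjusted p = 0.00172 from limma). Its log2 fold change stayed between 4.08 and 4.45 when each library was left out in turn, while the adjusted p ranged from 0.00242 to 0.0194, so that the call held in 2 of these 6 fits (without stress -27 and without stress +5) and was lost in the other 4. In an exact permutation test of the 2 libraries of +5 against the 4 early ones (one-sided), p was 0.0667, the smallest that this design allows.

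The level of SQUA1 differed less between the treatments than between leaf axils. The control libraries had a mean FPKM of 45.6 ± 68.3 (SD, n = 3 leaf axils of a tree) and the stress libraries of 54.1 ± 83.0 (SD, n = 3), and the spread between leaf axils was larger than either mean. Stress was lower than control at -27 and higher at -20 and +5, by -0.37, 0.28 and 0.27 on the log2(FPKM + 1) scale. None of these reached 2-fold. At -27, 2.63% of the tested genes were at least 2-fold higher under stress and 4.18% at least 2-fold lower, and at -20 the shares were 2.48% and 4.86%. In limma, where 0.368% of the genes were called between control and stress, the log2 fold change was 0.06 (standard error 1.52, adjusted p = 0.986). A fit that blocked on the leaf axil gave the same log2 fold change with a standard error of 0.18 (adjusted p = 0.865 from limma). An exact permutation test (two-sided) gave p = 1, in a design of 3 against 3 that cannot go below 0.1.

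**Figure D2:**
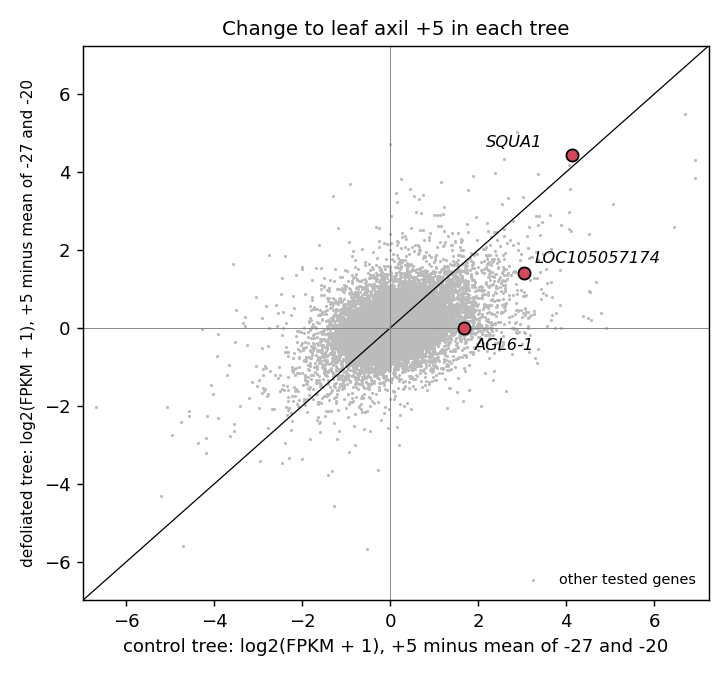
Difference in log2(FPKM + 1) between leaf axil +5 and the mean of -27 and -20, in the control tree (horizontal) and in the defoliated tree (vertical), for the 20926 tested genes (grey points). The diagonal marks equal differences: SQUA1 (4.13 and 4.44) lies close to it, LOC105057174 (3.03 and 1.40) and AGL6-1 (1.68 and 0) lie below it.

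LOC105057174, an AGL2-type gene and so of the group that supplies SEPALLATA partners, was listed at 0 at leaf axils -27 and -20 in the control and had an FPKM of 7.19 at +5. Under stress its FPKM was 0.252 at -27, 0 at -20 and 1.95 at +5. Both libraries of +5 were above the 4 early libraries, and that of the control was the highest. The value at +5 was 3.69 times as high in the control as under stress. Among the records above 0 in the same library, 64.9% had a lower value than LOC105057174 in the control at +5, 33.3% under stress at +5 and 9.50% under stress at -27. The early value of 0.252 was therefore near the lower end of what the table resolves, and gives no sign by itself of earlier appearance in the defoliated tree.

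Against the mean of the early leaf axils, LOC105057174 was 3.03 higher at +5 in the control (rank 84 of 20926 by rise) and 1.40 higher under stress (rank 402) on the log2(FPKM + 1) scale. Over both trees the log2 fold change was 2.22 (standard error 0.37), with an adjusted p = 0.0180 from limma that missed the threshold of 0.01. With a pseudocount of 0.1 the log2 fold change was 4.82. Over all alternatives tried the adjusted p from limma ranged from 0.00448 to 0.120. The lowest of these came without the stress library of +5, a fit that sets the control library of +5 alone against the early ones and assumes that it varies as the other libraries do, so it adds no support. The exact permutation p of the 2 libraries of +5 against the 4 early ones (one-sided) was 0.0667, again the smallest possible. LOC105057174 passed the filter on low values only through the 2 libraries of +5, which favoured a rise there in advance. Its rank by rise and these p-values are therefore no independent support.

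At +5, LOC105057174 was lower under stress by -1.47 on the log2(FPKM + 1) scale, beyond the 2-fold mark, and AGL6-1 was lower by -1.68. These were 2 of the 6 genes, or 2 of the 3 that passed the filter on low values. No gene of the 6 was at least 2-fold higher under stress at +5. The 3 that did not pass were at 0 or near it and could not differ 2-fold on this scale. LOC105057174 and AGL6-1 passed only through libraries of +5, AGL6-1 through that of the control alone, which favoured a difference there. In the background 11.2% of the tested genes were at least 2-fold lower and 6% at least 2-fold higher, with a median difference of -0.12, and after centring on library medians the shares were 8.19% and 8.29%. Of the tested genes that stayed under an FPKM of 10 throughout, 9.66% were at least 2-fold lower. With a pseudocount of 0.1 in place of 1, the difference was -1.83 for LOC105057174 and -4.53 for AGL6-1, and 3 of the 6 genes were at least 2-fold lower, AGL2-3 being the added one, so the size of these differences depends on the pseudocount. Each treatment has 1 library at +5, so these differences have no replicate check there. Relative to control -27, the depth read from low FPKM values was 0.949 in the control library of +5 and 1.12 in the stress library. The part of depth in these differences was not tested.

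AGL6-1, whose group neighbours the SEPALLATA genes, was listed at 0 in 5 libraries and had an FPKM of 2.21 in the control at +5. In that library 33.5% of the records above 0 had a lower value. A lone value of this kind was uncommon but not rare: 506 records were above 0 in the control library of +5 alone, with a median FPKM of 0.171, and 14 of them, AGL6-1 included, were at least as high as AGL6-1. In the stress library of +5, 262 records were above 0 there alone, and 1 of them was as high as AGL6-1. No ratio is given against a library listed at 0. Over both trees, the log2 fold change of +5 against the early leaf axils was 0.84 (standard error 0.38, adjusted p = 0.215 from limma). AGL6-1 passed the filter on low values only through the control library of +5. Without the stress library of +5 the log2 fold change was 1.68 and without the control library of +5 it was 0, so 1 library carries the whole difference. The adjusted p from limma ranged from 0.00519 to 1 over the alternatives, the lowest from the fit that sets this 1 library against early values of 0, with a spread lent by other genes, and so it adds no support.

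Between control and stress over the 3 leaf axils, neither of these genes was called. The log2 fold change was -0.38 for LOC105057174 (standard error 0.85, adjusted p = 0.834 from limma) and -0.56 for AGL6-1 (standard error 0.47, adjusted p = 0.544 from limma). Whether the difference between the trees at +5 departed from that at the early leaf axils was tested with limma over 4 cell means. This test takes its spread from leaf axils -27 and -20 alone, with 2 residual degrees of freedom and no replicate at +5. The difference of differences was -1.64 for LOC105057174 (standard error 0.28, adjusted p = 0.0643), -1.68 for AGL6-1 (standard error 0.17, adjusted p = 0.0385) and 0.31 for SQUA1 (standard error 0.53, adjusted p = 0.757). None of them was past the threshold, and neither was any of the 20926 genes (0% called, and 5101 at an unadjusted p under 0.05 in limma). All 4 early values of AGL6-1 were 0, so its spread in this test is that lent by other genes. Without a filter on low values AGL6-1 was called at the same difference of -1.68, with a standard error of 0.00528. That fit takes in the records listed at 0 throughout, and the spread of AGL6-1 again came from other genes. With no replicate at +5 and early values of 0, this call adds no support.

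AGL2-3, a further AGL2-type gene, was above 0 only in the control library of +5, with an FPKM of 0.153. Only 4.97% of the records above 0 in that library were lower, and it fell below the filter on low values. Of the 506 records seen in that library alone, 287 were at least as high. LOC105042148 and MADS2, also of the AGL2 type, had no value above 0. Of the 6 genes, 3 passed the filter and 3 (AGL2-3, LOC105042148 and MADS2) did not.

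**Figure D3:**
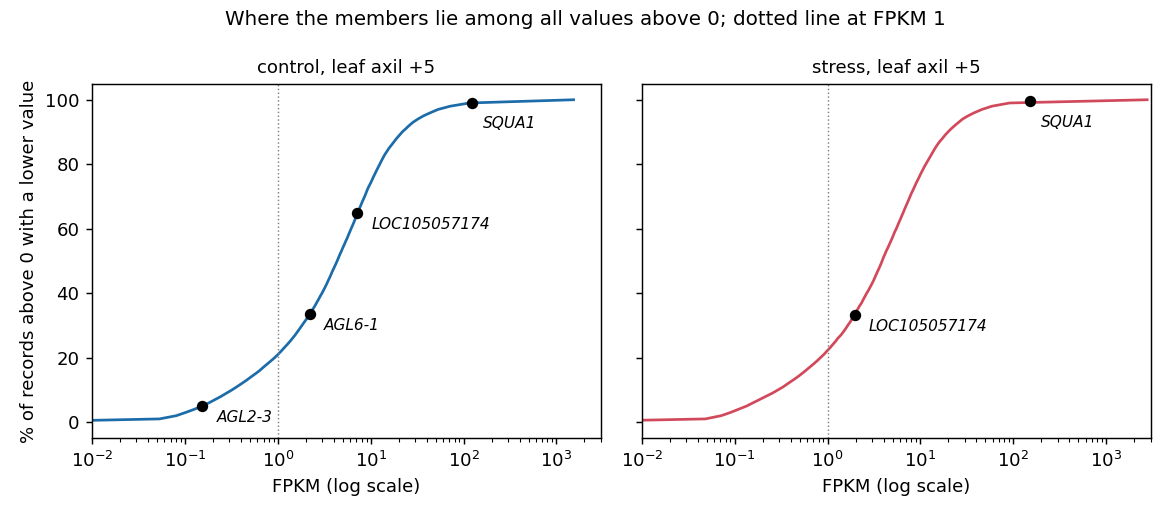
Share of the records above 0 that have a lower value (vertical, in percent) against FPKM (horizontal, log scale) in the libraries of leaf axil +5, control on the left and stress on the right, with black points for the genes described here and a dotted line at an FPKM of 1. SQUA1 sits above 99% of the records in both libraries, LOC105057174 at 64.9% in the control and 33.3% under stress, and AGL2-3 at 4.97% in the control.

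Within a library, the proportion between the genes does not depend on how libraries were scaled. At +5 the summed FPKM of the 6 genes was 134 in the control and 152 under stress. SQUA1 made up 92.9% of it in the control and 98.7% under stress, and LOC105057174 made up 5.37% and 1.28%. AGL6-1 had 1.77% of the FPKM of SQUA1 and 30.7% of that of LOC105057174 in the control. The order at +5 was SQUA1, LOC105057174, AGL6-1 and AGL2-3 in the control, and SQUA1 followed by LOC105057174 under stress. Without replicates at +5, the order of AGL6-1 and LOC105057174 in the control cannot be set against a spread. AGL2-type genes resemble each other in sequence, and how shared reads were divided among them is not given in the sources used here, so the values of single AGL2-type genes are uncertain to that extent.

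SQUA1 and LOC105057174 are direct neighbours in RefSeq's gene table of the newer EG11 assembly, with 0 genes of the table between them, and so are MADS2 and LOC105042148. The first pair thus held the 2 genes with the largest rise toward +5 among the 6, and the second pair the 2 genes listed at 0 throughout. Of the 10 nearest genes around SQUA1 and LOC105057174 that had exactly 1 record in the data (5 on each side), 7 were tested. At +5, 1 of the 7 was at least 2-fold higher in the control tree and 0 in the defoliated tree, with differences between -0.53 and 1.18 in the control and between -1.12 and 0.26 under stress. The differences of SQUA1 and LOC105057174 lay above these ranges in both trees. LOC105057174 passed the filter only through libraries of +5, so its place above them was favoured in advance. A cause shared by the region was not tested. Around MADS2 and LOC105042148 all 10 genes chosen in this way were tested, that is, each reached an FPKM of 1 in some library. The gene order is that of the newer assembly, and the cause of the values of 0 was not tested.

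Genes whose profile was most like that of a member were sought over the 6 libraries with Pearson's r on the log2(FPKM + 1) scale, among the 13285 tested genes that reached an FPKM of 5 in any library. For SQUA1 they were LOC105047460 (r = 0.997), LOC105057227 (r = 0.996) and LOC105061212 (r = 0.996). The FPKM of LOC105047460 was 2.85 at -27, 3.43 at -20 and 20.03 at +5 in the control, against 3.08, 3.87 and 23.7 in the defoliated tree. For LOC105057174 they were LOC105032350 (r = 0.999), LOC105055196 (r = 0.998) and LOC105041327 (r = 0.996). The FPKM of LOC105032350 was 2.44, 2.59 and 9.59 in the control tree, against 2.86, 2.52 and 4.99 in the defoliated tree. An r over 0.99 was reached by 12 genes for SQUA1 and by 20 for LOC105057174. With 6 libraries of 2 trees, such values rest mainly on the libraries of +5. For AGL6-1 and AGL2-3 the measure says little, since any gene seen in the control library of +5 alone has an r of 1, and LOC105035107, LOC105036847 and LOC105053031 are among these.

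Other floral and tissue genes give the setting of these values. The B class genes, which set petal and stamen identity in Arabidopsis, differed in level. GLO1 (LOC105037274) had an FPKM between 4.59 and 11.2 and GLO2 between 0.844 and 7.83, both highest in the control at +5, while DEF1 was above 0 in 1 library only, at 0.164 in the control at -27. AG2, a C class gene, was listed at 0 in all 6 libraries. Of the 7 records with a MADS-type symbol, 3 are no members (AG2, DEF1 and GLO2). GLO1 and GLO2 were both lower under stress at every leaf axil. At -20 the FPKM of GLO2 was 4.86 in the control tree and 0.844 in the defoliated one (-1.67 on the log2(FPKM + 1) scale). At that leaf axil 4.86% of the tested genes were at least 2-fold lower under stress. At +5 the FPKM of GLO2 was 7.83 and 3.51 (-0.97 on that scale). For GLO1 the differences were -0.49 at -27, -0.30 at -20 and -0.15 at +5. KNOX1, a meristem gene, was high in all libraries, with an FPKM of 847 (-27), 480 (-20) and 381 (+5) in the control. Under stress it was 961, 914 and 928 in that order. The meristem marker thus differed between the libraries of +5 in the direction opposite to LOC105057174 and AGL6-1. KNOX1 was already higher under stress at -20, where LOC105057174 and AGL6-1 were listed at 0 in each tree. The part of KNOX1 in their difference at +5 was not tested. The chloroplast genes rbcL and psbA stayed under 1 in every library.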

How the data were processed

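Total RNA of 6 inflorescence samples was sequenced as paired ends. Per the labels and the methods, the authors aligned untrimmed reads with HISAT2 2.1.0, quantified genes with StringTie 1.3.4 and deposited FPKM values. The files give no read counts. Depth relative to control -27, read from the ratio of FPKM values under 1, was between 0.949 (control, +5) and 1.19 (stress, -27). No pooled or unassigned column was used. The submitters also name DESeq2 1.18.1, which was not run here since it needs counts.

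The deposited FPKM values were put on the log2(FPKM + 1) scale. The 20926 of 32099 records that reached an FPKM of 1 in any library were tested with limma 3.58.1 in R 4.3.3 (empirical Bayes with a mean-variance trend, Benjamini-Hochberg adjustment). This filter keeps genes that appear at +5 alone. Control and stress were compared without a covariate, +5 and early leaf axils with the treatment as covariate. Descriptive steps were run in Python 3.11.15 with pandas 2.3.3 and numpy 2.4.6, permutation tests with scipy 1.17.1 and figures with matplotlib 3.10.9. The fits were tested on simulated data.

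The leaf axil in the labels pairs the libraries: across genes, the deviations from the treatment means had an r of 0.228 for leaf axil -27, 0.339 for -20 and 0.414 for +5. Replicates are leaf axils of a tree, so p-values measure the spread within these 2 trees. The genes and lists were chosen with earlier results of these data known. Named beside the members were the 3 most similar profiles of each and the marker genes. Symbols matched 28655 records (89.3%) of a RefSeq table built on EG11, which is newer than the authors' assembly, so no coordinates are given and no sequences were used here. The planned list of MADS-box relatives by protein was replaced by symbols for that reason. RBCS, CAB and AG1 were not matched by symbol.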

Additional observations from a re-analysis of the deposited data

How the results depend on the processing

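The number of genes called between control and stress was 77, and it was 7 without a filter on low values, 33 with a replicate block on the leaf axil and between 0 and 41 with 1 library left out. For leaf axil +5 against the early ones, 321 genes were called, 1 without a filter and between 0 and 791 with 1 library left out (791 without the stress library of +5). For the difference of the treatment effect at +5, 0 genes were called, but 92 with a filter on 3 libraries, 118 without a filter and 11 after centring on library medians, while leaving out an early library gave 0 in each fit. The block changed no call of a member. Across alternatives, the rise of SQUA1 kept its direction and was called in 7 of 12. These include the fit without stress +5, which sets the control library of +5 alone against the early ones and adds no support. The call of SQUA1 was lost without a filter (adjusted p = 0.0367 from limma) and when an early control library, control +5 or stress -20 was left out. With 1 library left out, the log2 fold change of SQUA1 between control and stress ranged from -1.42 to 1.44 and that of LOC105057174 from -0.89 to 0.63, and the difference of the treatment effect for SQUA1 from -0.13 to 0.75. The number of members that had appeared under stress at +5 was 2, and 1 with the point of appearance at an FPKM of 2. The causes were not tested. The table gives no counts, so no counting intervals were computed, and values under an FPKM of 1 carry little weight.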

Other observations

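In the FPKM values as listed, appearance at leaf axil +5 was lopsided between the trees well beyond the floral genes described above. Of the tested genes, 83 were listed at 0 in all 4 early libraries. Of these, 65 reached an FPKM of 1 in the control library of +5 only, 7 in the stress library of +5 only and 11 in both. AGL6-1 was among the 65. Where the early values only had to be under 1, 617 genes reached 1 in the control library alone, 278 in the stress library alone and 330 in both, among them LOC105057174. In 75 of those 330 the FPKM was at least 2 times as high in the control as under stress, and in 10 it was the other way round. Of the 65, 38 were listed at 0 in the stress library of +5, and of the 7, 3 were listed at 0 in that of the control. These numbers describe 1 library per tree, and no test was run on them. They were not recounted after centring on library medians. Over all tested genes at +5, 1255 were at least 2-fold higher under stress and 2350 at least 2-fold lower as listed. After centring, the numbers were 1734 and 1713. The part of library scaling in the lopsided appearance was not tested.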
